A study of Mus musculus with 4 samples.

Results

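The genes described are 8 that handle iron and haemoglobin (Cd163, Hmox1, Slc40a1, Fth1, Ftl1, Trf, Tfrc and Slc11a1) together with the antibody tag against CD163. They were taken by symbol from the feature lists of both matrices, which hold 32285 mouse genes and 198 antibody tags; each of the 8 symbols and the tag was found in both. The data are CITE-seq, in which transcripts and DNA-tagged antibodies are counted in the same single cells, from hearts of C57BL6J mice. There were 2 treatment groups, a rat IgG isotype antibody and an antibody against CD40 that acts as an agonist, and each group was 1 library made from 4 pooled hearts. Age, sex, dose and time after treatment are not given in the sources used here. All mice otherwise shared strain and tissue handling: the atria were removed, red cells were lysed with ACK buffer, and live cells were sorted (CD45-positive without DAPI per the labels' protocols, DRAQ5-positive without DAPI per the series' design text). With 1 library in each group there was no test between groups; every interval below is an exact 95% interval that covers counting error only, and the effect of treatment cannot be told apart from other differences of the 2 preparations.

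Tissue macrophages recycle iron. CD163 takes up complexes of haemoglobin and haptoglobin, the enzyme haem oxygenase 1 (Hmox1) breaks haem open, and the freed iron is either stored in ferritin, a shell of heavy (Fth1) and light (Ftl1) chains, or sent out of the cell through ferroportin (Slc40a1), the known cellular iron exporter. Iron in plasma travels on transferrin (Trf) and enters cells through the transferrin receptor (Tfrc, the antigen CD71), while Slc11a1, also called Nramp1, moves divalent metals out of the phagosome of macrophages and neutrophils.

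Upstream sequence is shown for Cd163, the gene of the 8 with the lowest log2 ratio between the libraries in phagocytes when 10 CPM is added to each level (without it, Slc40a1 is lowest), and for Slc11a1, one of the members whose ratio stayed within 1.5-fold. Both stretches are the 250 bases before the RefSeq start (build GRCm38.p6, plus strand): chr6:124304401-124304650 for Cd163 and chr1:74374953-74375202 for Slc11a1. Capitals mark a match to GAGGAA, the core of PU.1 sites.
Cd163: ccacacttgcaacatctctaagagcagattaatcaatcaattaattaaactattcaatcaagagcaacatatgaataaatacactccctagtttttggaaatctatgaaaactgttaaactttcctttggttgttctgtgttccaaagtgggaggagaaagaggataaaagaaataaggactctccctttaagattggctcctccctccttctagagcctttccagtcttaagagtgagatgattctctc
Slc11a1: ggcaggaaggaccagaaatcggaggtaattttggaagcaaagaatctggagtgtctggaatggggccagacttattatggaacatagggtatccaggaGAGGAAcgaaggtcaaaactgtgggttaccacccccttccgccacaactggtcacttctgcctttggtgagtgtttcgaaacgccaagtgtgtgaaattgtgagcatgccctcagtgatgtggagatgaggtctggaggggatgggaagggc
The table held promoter windows for 5 of the 8 genes (Cd163, Fth1, Ftl1, Tfrc and Slc11a1), 7 windows of 300 bases in all. They were searched on both strands for TGACNNNGC (the core of antioxidant response elements) and for GAGGAA. The only match to either was the GAGGAA in Slc11a1, which begins 152 bases before the start. Among all 32851 windows, 28.3% held GAGGAA and 12.4% held TGACNNNGC. The loop letters of iron-responsive elements, CAGTGN, were sought only on the gene's strand in the 50 bases after the start. None of these 7 windows held them there, and 7.08% of all windows did. Sequence further into the transcripts was not searched, so this cannot tell whether the genes hold such elements.

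Barcodes passed with 200 genes or more and a mitochondrial share of UMIs under 10%, which left 2558 of 4908 barcodes in the isotype library (median 5446 UMIs) and 4278 of 7087 in the anti-CD40 library (median 8284.5 UMIs); 13 barcodes occurred in both. A cell was gated to a class when it held at least 3 different markers of that class. Droplets that also passed the gate of an unrelated class were kept apart as mixed (454 isotype and 435 anti-CD40 droplets, 17.7% and 10.2% of kept cells). Their make-up differed: droplets of B cells with phagocytes were 297 in the isotype and 19 in the anti-CD40 library (11.6% and 0.444% of kept cells). Their transcripts are therefore missing from the phagocyte levels, mostly on the isotype side. The phagocyte gate (Csf1r, Adgre1, Cd68 and 6 other markers, all detected) took 859 isotype cells and 2510 anti-CD40 cells, with median depths of 7551 and 10658 UMIs. Levels below are CPM, UMIs of a gene per 1000000 UMIs of the gated cells of 1 library. Lower and higher always mean the anti-CD40 library against the isotype library, and in sums over a gate, fewer cells with a transcript and less of it in each cell are not separated. Phagocytes were also split by marker, in this order: resident (at least 2 UMIs of Timd4, Lyve1 and Folr2; 334 and 762 cells), nonclassical monocyte (135 and 648), classical monocyte (47 and 272), Ccr2 (80 and 387) and other (263 and 441). These splits are ranges of marker counts, not cell types, deeper cells enter the first of them more easily, and treatment can move markers such as Ly6c2.

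Of the 8 genes, 4 were lower in anti-CD40 phagocytes by at least 1.5-fold: Cd163, Trf, Slc40a1 and Hmox1. The call used a log2 ratio with 10 CPM added to each library and needed 30 UMIs in the library where the gene was higher. In the same comparison 11.6% of 8458 genes tested were lower, and 6.17% were higher, as was 0 of the 8. The median log2 ratio was -0.68 over the 8 genes and -0.13 over all genes tested. All genes together had more lower than higher calls: 65.4% of calls were lower. Scaling by TMM or by the median of ratios moved the median of all genes up by 0.22 and 0.23, left 32.7% and 32.2% of calls on the lower side, and took Hmox1 out of the calls, while Cd163, Trf and Slc40a1 kept theirs. After thinning every cell to 1000 UMIs and gating again, Cd163 and Trf were called, beside 7.11% of 8768 genes lower and 7.49% higher. In that setting 48.7% of calls were lower. Over all kept cells, mixed droplets included, the ratios without the prior were nearer 1 than in gated phagocytes. Cd163 was 4.77-fold lower there, Trf 3.87-fold, Slc40a1 3.67-fold and Hmox1 1.496-fold, but the mix of classes also differs between the libraries.

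In the resident gate, 5 of the 8 genes were lower, Tfrc being the fifth, beside 11.7% of 8505 genes tested, and 0 were higher beside 7.09%. In gated neutrophils (158 and 319 cells), Slc40a1, Trf and Slc11a1 were lower, 3 of 8 beside 10.8% of 6997 genes tested, and 0 were higher beside 8.73%.

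**Figure D1:**
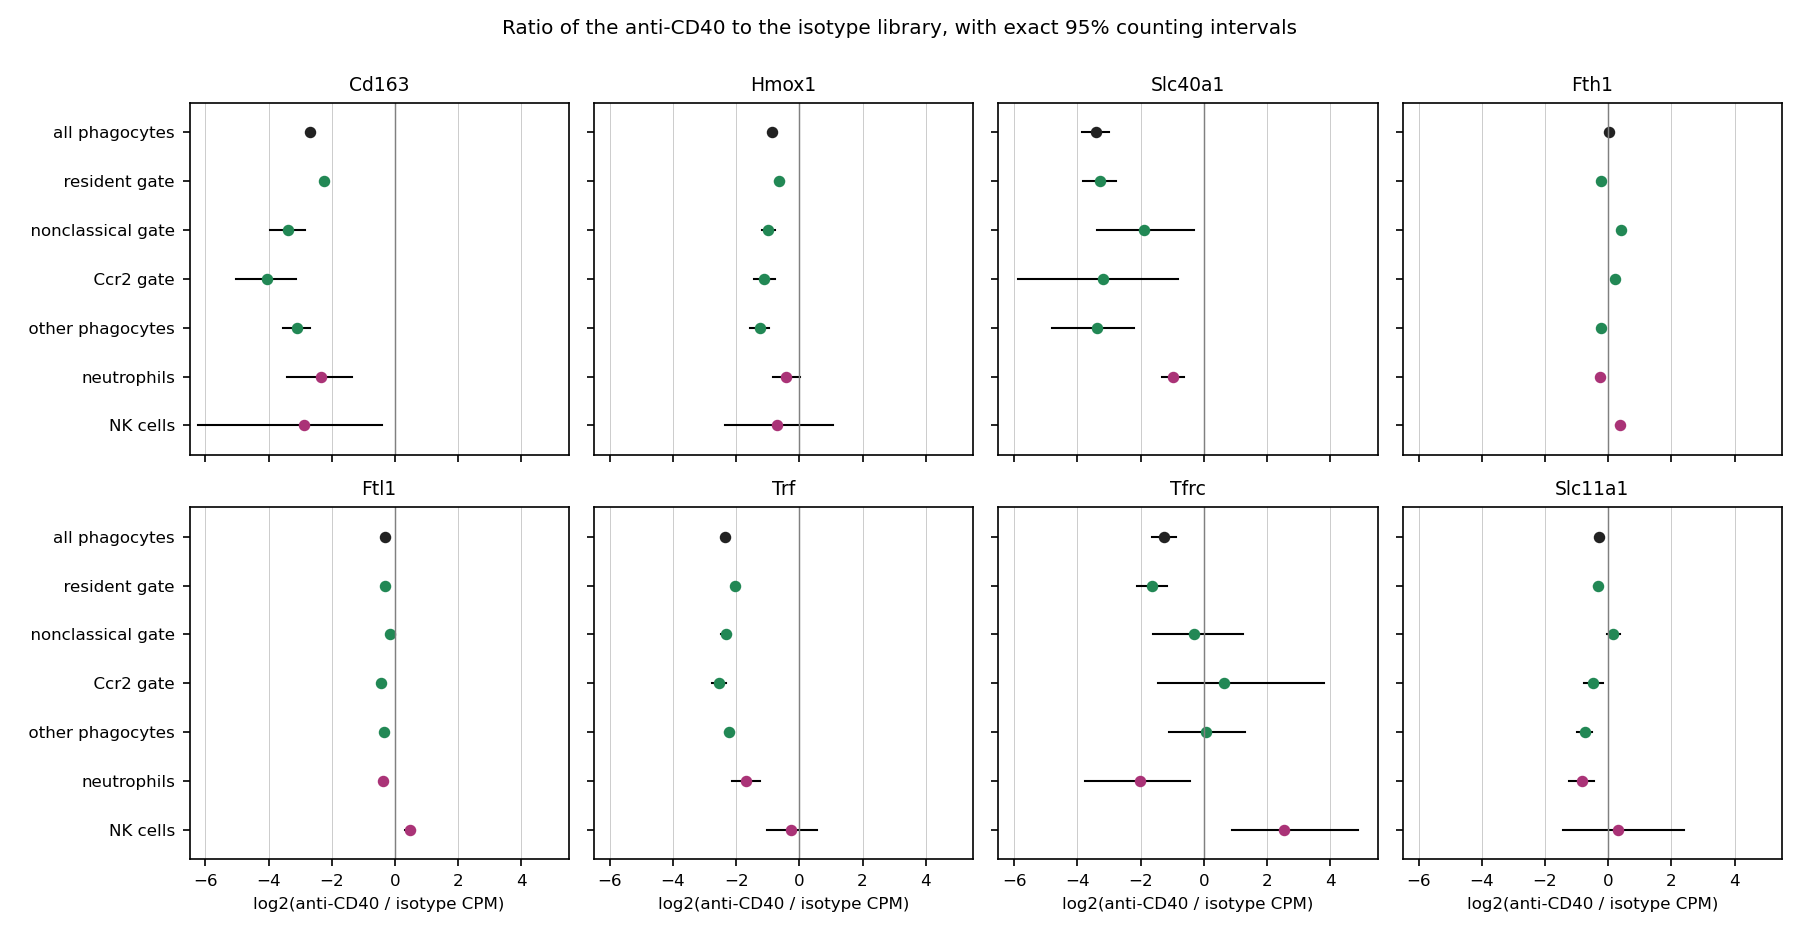
Log2 ratio of anti-CD40 to isotype CPM, with no added prior, for each of the 8 genes (panels) in all gated phagocytes, in 4 phagocyte splits, in neutrophils and in NK cells; bars are exact 95% counting intervals, and a pair with 0 UMIs in a library is not drawn. Cd163, Trf, Slc40a1, Hmox1 and Ftl1 lie left of 0 in every phagocyte split drawn, Fth1 lies on both sides, and Tfrc in NK cells lies to the right.

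Cd163, the receptor for haemoglobin and haptoglobin, was at 245 CPM (1912 UMIs) in isotype phagocytes and 38.4 CPM (1228 UMIs) in anti-CD40 phagocytes. The anti-CD40 level was 6.39-fold lower (5.94 to 6.87), and 8 of the 8458 genes tested had a lower log2 ratio. Cd163 UMIs were found in 43.0% of isotype and 15.5% of anti-CD40 phagocytes, against 3.82% and 1.23% of NK cells, a class that should lack the gene (median depths 4645 and 7961 UMIs). At 1000 UMIs a cell the phagocyte shares were 18.4% (153 of 832 cells) and 3.11% (77 of 2476).

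The resident gate held 80.8% of the Cd163 UMIs of isotype phagocytes and 90.2% of those of anti-CD40 phagocytes, with 38.9% and 30.4% of the cells. There Cd163 was at 417 CPM in the isotype and 88.5 CPM in the anti-CD40 library, 4.72-fold lower (4.36 to 5.10). The gap was present inside the resident range. With cells thinned before gating (108 and 117 cells) the log2 ratio in resident phagocytes was -1.11, against -2.12 without thinning. Thinning changed both the depth and which cells passed the gate, and their parts were not separated. In the nonclassical, Ccr2 and other splits the isotype level was lower than in resident cells and the ratio was further from 1. Nonclassical cells had 52.0 and 4.97 CPM, 10.5-fold lower (7.16 to 15.5). Cells of the Ccr2 split had 56.7 and 3.46 CPM, 16.4-fold lower (8.78 to 32.5), on 42 and 14 UMIs.

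Among the other gated classes Cd163 was low in both libraries, with its highest level in neutrophils, at 55.1 and 10.8 CPM (27 and 13 UMIs). Neutrophils with at most 1 phagocyte marker had 20.4 and 4.43 CPM (7 and 3 UMIs). Gated B cells of the isotype library had 25.3 CPM, and fibroblasts had 0 UMIs in both libraries. In NK cells Cd163 was at 9.55 and 1.30 CPM (6 and 2 UMIs), so its UMIs in cells that should not express it were also fewer in the anti-CD40 library.

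The CD163 tag gave the protein side. Isotype phagocytes held 213800 CD163 tag UMIs, 249 per cell and 63525 per 1000000 tag UMIs (tag CPM). Anti-CD40 phagocytes held 155153, 61.8 per cell and 14366 tag CPM. The tag was 4.42-fold lower (4.39 to 4.45) in the anti-CD40 library, while the 9 control antibodies summed were at 784 and 648 tag CPM in the same cells, 1.21-fold lower. The tag was spread unevenly: the median isotype phagocyte had 35 tag UMIs and the 90th percentile 778.8, and the corresponding anti-CD40 values were 4 and 179.1. At least 50 tag UMIs were counted in 405 of 859 isotype phagocytes (47.1%) and 494 of 2510 anti-CD40 phagocytes (19.7%). In NK cells 0.763% and 3.68% reached 50 tag UMIs, with medians of 3 and 2.

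Resident phagocytes carried 516 CD163 tag UMIs per cell in the isotype library and 168.5 in the anti-CD40 library. Scaled to all tags they were at 92759 and 25474 tag CPM, 3.64-fold lower (3.62 to 3.67). Nonclassical cells had 55.4 and 14.4 tag UMIs per cell. Classical monocyte cells had 5.89 and 5.81, close to the 7.12 and 7.23 of NK cells.

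**Figure D2:**
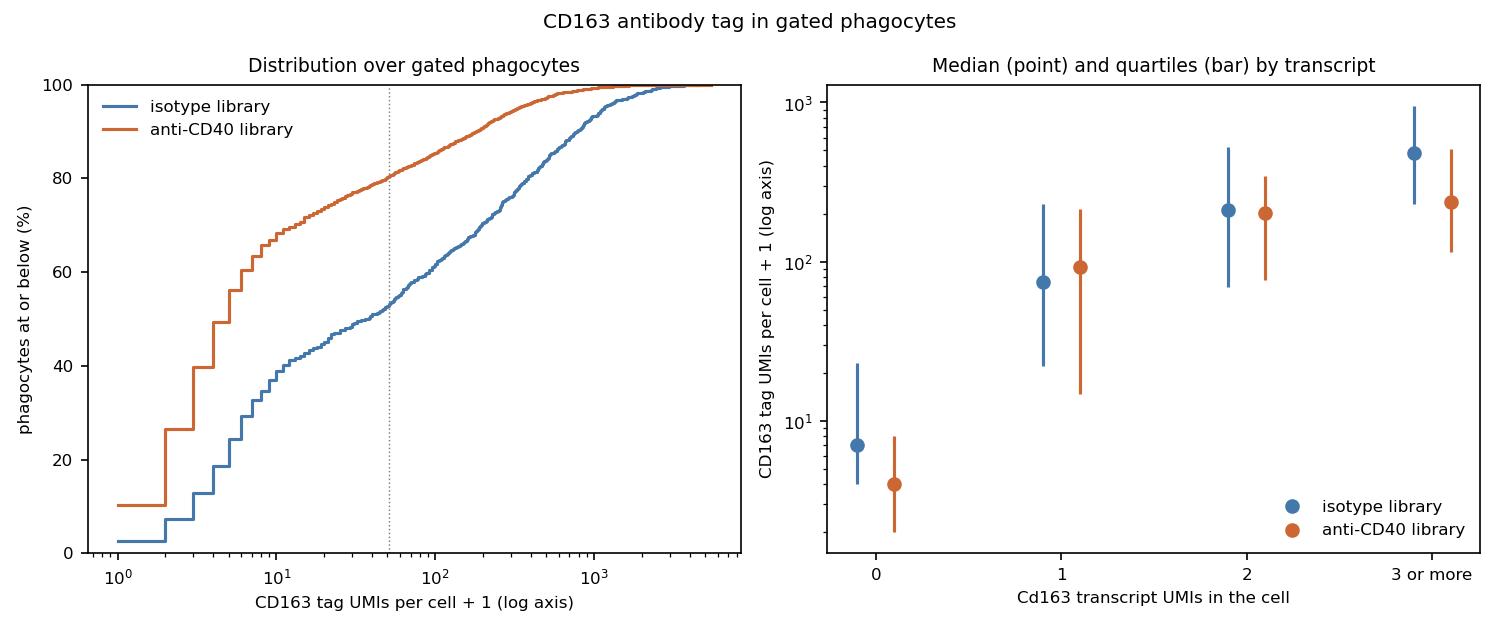
Left, the share of gated phagocytes at or below a given number of CD163 tag UMIs (log axis, 1 added), 1 line per library, with a dotted line at 50 UMIs. Right, median and quartiles of tag UMIs in phagocytes with 0, 1, 2 or at least 3 Cd163 transcript UMIs; the tag is higher with more transcripts in both libraries, with medians from 6 to 478 in the isotype and from 3 to 237 in the anti-CD40 library.

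Tag and transcript were high in the same cells. Isotype phagocytes with 0, 1, 2 and at least 3 Cd163 UMIs (490, 105, 49 and 215 cells) had median tag counts of 6, 73, 209 and 478. In the anti-CD40 library the same steps (2121, 176, 69 and 144 cells) had medians of 3, 91, 202 and 237. At 1 and 2 transcripts the medians of the libraries were close, and at 3 or more the isotype median was higher. As a share of a cell's own tag UMIs, the isotype median was higher at every step, for example 6.32% against 2.54% at 2 transcripts, where the median total of tag UMIs was 3359 and 5242.

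Splitting phagocytes at 50 CD163 tag UMIs placed the other genes beside the protein. In the isotype library, cells with at least 50 had 35.1 CPM of Slc40a1 against 8.73 CPM in cells under 50, and 1116 against 576 CPM of Trf. In the anti-CD40 library Trf was again higher in the cells with at least 50, at 291 against 124 CPM, whereas Slc40a1 was at 2.17 and 2.03 CPM with overlapping intervals. Among cells with at least 50 tag UMIs, Slc40a1, Trf and Hmox1 (166 and 113 CPM) were all lower in the anti-CD40 library. Cd163 itself was at 466 CPM in the isotype and 138 CPM in the anti-CD40 cells of this range. The split therefore did not match the libraries for Cd163 level. Trf and Cd163 UMIs also shared cells: at 1000 UMIs, 65.4% of isotype phagocytes with a Cd163 UMI had a Trf UMI (57.3 to 72.9), against 46.8% of those without.

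The genes whose levels followed Cd163 most closely over 11 class-by-library profiles (Pearson's r of log2 CPM with 10 added, of 6300 genes compared) were F13a1, Mrc1, Slc43a2, Cbr2 and Pf4, with r from 0.933 to 0.960. The profiles come from only 2 libraries and share their depth, so this is a description.

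Hmox1, the inducible enzyme that opens the haem ring, was at 162 CPM (1261 UMIs) in isotype and 88.7 CPM (2836 UMIs) in anti-CD40 phagocytes. It was 1.82-fold lower (1.71 to 1.95) in the latter, and its log2 ratio with the prior was -0.80. The share of cells with a UMI was near equal at full depth, 46.4% and 43.2%, and 11.5% and 6.79% at 1000 UMIs; NK cells had 3.82% and 5.52% at full depth. Isotype levels differed little among the splits, from 123 CPM in classical monocyte cells to 170 CPM in resident cells. Anti-CD40 levels were lower in each, from 64.0 CPM in Ccr2 cells to 109.5 CPM in resident cells. The resident gap was 1.55-fold (1.41 to 1.70) and the Ccr2 gap 2.15-fold (1.69 to 2.72).

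Neutrophils had Hmox1 levels near those of phagocytes, 147 CPM (115 to 185) and 111 CPM (92.6 to 131), with a ratio interval that included 1 (1.33-fold lower, 0.982 to 1.78). Mixed droplets of neutrophils with phagocytes had 113 and 118 CPM. B, T, NK, dendritic and endothelial gates were all under 20 CPM, and fibroblasts had 17.4 and 24.6 CPM. The genes with the most similar profiles over the 11 were Cd14, Slc11a1, Ftl1-ps1, Mpp1 and C5ar1 (r from 0.961 to 0.976).

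Slc40a1, the exporter, was highest in the neutrophil gate. Isotype neutrophils had 253 CPM (210 to 302; 124 UMIs in 67 of 158 cells) and anti-CD40 neutrophils 129 CPM (109 to 151; 155 UMIs in 102 of 319 cells), 1.96-fold lower (1.54 to 2.50). Phagocytes had 21.9 CPM (171 UMIs in 73 of 859 cells) and 2.06 CPM (66 UMIs in 39 of 2510 cells), 10.6-fold lower (7.96 to 14.3). Both classes were thus lower in the anti-CD40 library, and in each library the neutrophil level was above the phagocyte level. T cells had 0 UMIs in both libraries and NK cells 0 and 1. For T cells, 3 counts would give 11.4 and 2.91 CPM.

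The neutrophil level was as high in the cells with few phagocyte transcripts. Neutrophils with at most 1 phagocyte marker, a filter chosen after seeing the data, had 297 CPM (125 cells) and 157 CPM (222 cells). Summed phagocyte markers were at 469 and 669 CPM in gated neutrophils and at 3988 and 3467 CPM in gated phagocytes. Conversely, summed neutrophil markers were at 66.6 and 64.0 CPM in phagocytes and 14543 and 20343 CPM in neutrophils, with 7 of 8 detected in phagocytes and Cxcr1 at 0. Mixed droplets of both classes lay between the pure gates, at 74.8 and 28.9 CPM.

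Within phagocytes, resident cells held 70.8% of the isotype Slc40a1 UMIs and 63.6% of the anti-CD40 ones. Their levels were 32.7 CPM (121 UMIs in 54 of 334 cells) and 3.35 CPM (42 UMIs in 17 of 762 cells), 9.74-fold lower (6.81 to 14.2). The transcript was held by few cells: 1 isotype phagocyte carried 13 UMIs and 1 anti-CD40 phagocyte carried 20. Without the top cell of each library the log2 ratio over phagocytes was -1.40, as with them. With thinning before gating it was -1.54 in all phagocytes, where too few UMIs remained for a call, and -0.80 in the resident gate, against -1.68 without thinning. The thinned resident gate held 108 and 117 cells of 1000 UMIs each, so 1 UMI weighs heavily in its value. Without the prior the phagocyte value was -3.41, since 10 CPM is large beside 2.06 CPM. The 5 genes with the most similar profiles over the 11 were Kcnj2, Csf3r, Dusp1, Gm34589 and Nfe2 (r from 0.979 to 0.985); Csf3r is a marker of the neutrophil gate.

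**Figure D3:**
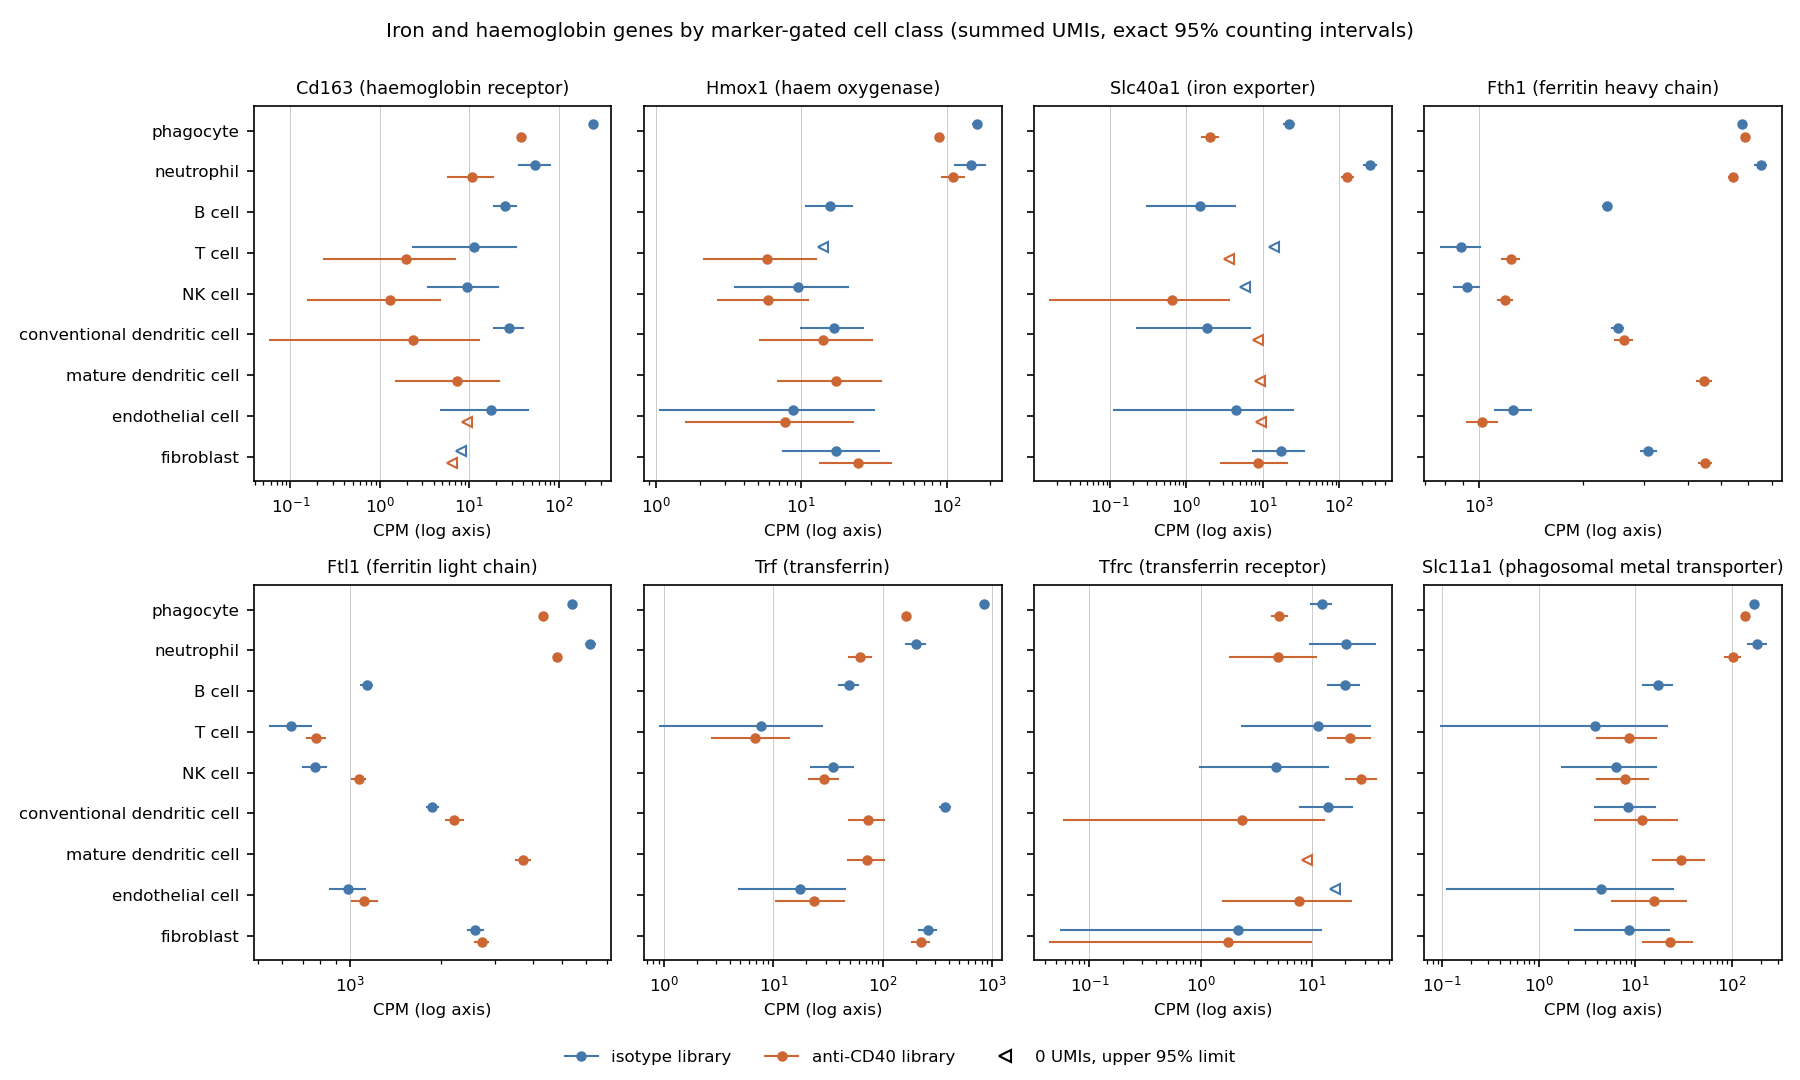
Level of each gene (CPM, log axis) by marker-gated class in the isotype and anti-CD40 libraries, for classes with at least 20 cells; bars are exact 95% counting intervals and open triangles mark the upper limit where 0 UMIs were counted. Cd163 is highest in phagocytes in both libraries, Trf in phagocytes in the isotype library and in fibroblasts in the anti-CD40 library (222 CPM), Slc40a1 in neutrophils (253 and 129 CPM), and both ferritin chains in phagocytes and neutrophils.

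The ferritin chains were the most evenly held members. Fth1 was at 5749 CPM in isotype and 5860 CPM in anti-CD40 phagocytes, 1.02-fold higher (1.01 to 1.03), a difference whose sign turned under other settings (log2 from -0.05 to 0.32). Ftl1 was at 5375 and 4331 CPM, 1.24-fold lower (1.23 to 1.25), with a log2 ratio from -0.31 to -0.02 over the settings. Neither passed 1.5-fold in any of these settings. At least 97.9% of phagocytes of either library held a UMI of each chain.

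Fth1 differed in opposite directions among the phagocyte splits. Resident cells had 6107 and 5269 CPM, 1.16-fold lower (1.14 to 1.18) in the anti-CD40 library, and other phagocytes had 7079 and 6022 CPM. Nonclassical cells had 4529 and 6029 CPM, 1.33-fold higher (1.30 to 1.37), and Ccr2 cells had 5895 and 6864 CPM. Classical monocyte cells had 3181 CPM (47 cells) and 6238 CPM (272 cells), the widest gap; no ratio was taken there because of the small isotype number. Ftl1 was lower in the anti-CD40 library in each split, with isotype levels from 4707 to 5764 CPM and anti-CD40 levels from 4185 to 4491 CPM.

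The ratio of Fth1 to Ftl1 UMIs does not depend on library scaling. In phagocytes it was 1.07 (1.06 to 1.08) in the isotype and 1.35 (1.34 to 1.36) in the anti-CD40 library. Nonclassical cells had 0.962 and 1.43, Ccr2 cells 1.02 and 1.62, and resident cells 1.08 and 1.17. Classical monocyte cells had the lowest isotype ratio, 0.637 (0.601 to 0.676), and 1.46 in the anti-CD40 library. Neutrophils had 1.05 and 1.13 and NK cells 1.20 and 1.11, both pairs with overlapping intervals. The ratio was highest in isotype B cells, at 2.06 (1.96 to 2.17). It compares 2 transcripts of unlike length and capture, so 1 is not a balance point.

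**Figure D4:**
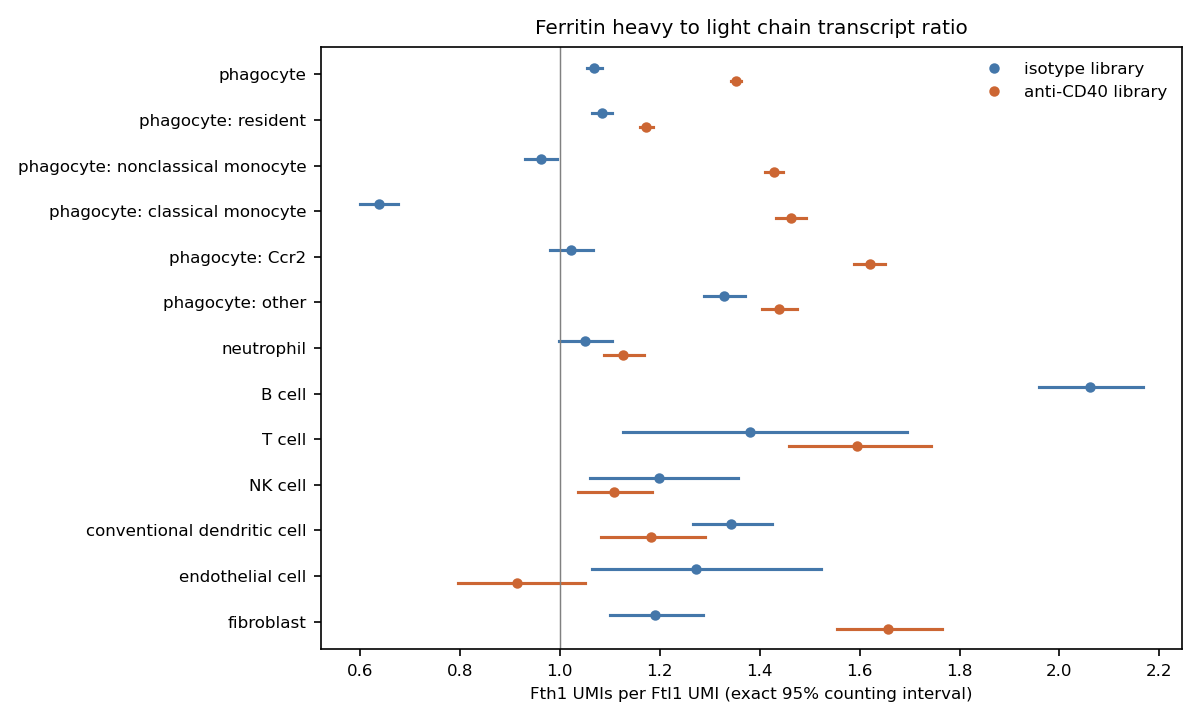
Fth1 UMIs per Ftl1 UMI by gated class and phagocyte split in both libraries, with exact 95% counting intervals, for groups of at least 20 cells. All 5 phagocyte splits lie further right in the anti-CD40 library, the classical monocyte split most (0.637 and 1.46), and isotype B cells are at 2.06.

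A processed copy of the light chain gene, Ftl1-ps1, has a row of its own in the files and could take or lose reads of Ftl1. It held 753 and 2223 UMIs in phagocytes, 1.80% and 1.61% of Ftl1. Adding it to Ftl1 gave a heavy to light ratio of 1.05 and 1.33 and a log2 ratio for the light chain of -0.31.

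Outside phagocytes and neutrophils, ferritin levels were lower. NK cells had 920 and 1187 CPM of Fth1, a 1.29-fold higher level (1.17 to 1.42), and 768 and 1071 CPM of Ftl1, 1.40-fold higher (1.26 to 1.55). T cells had 885 and 1234 CPM of Fth1. Fibroblasts had 3085 and 4499 CPM of Fth1 (40 and 58 cells), and the 32 mature dendritic cells of the anti-CD40 library had 4453 CPM.

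Trf encodes transferrin, the plasma carrier of iron, known chiefly as a liver product. Its level was 846 CPM (6595 UMIs) in isotype phagocytes and 165 CPM (5267 UMIs) in anti-CD40 phagocytes. The anti-CD40 level was 5.14-fold lower (4.95 to 5.33), and 13 of 8458 genes had a lower log2 ratio. Trf UMIs were found in 87.0% and 56.0% of phagocytes, and in 50.2% and 14.0% at 1000 UMIs; Beside these stand 15.3% and 11.7% of NK cells, 5.13% and 3.70% of T cells (median depths 6114 and 5794.5 UMIs) and 12.01% of isotype B cells at full depth; NK shares at 1000 UMIs were 1.63% and 2.47%.

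The Trf gap was present in each split with a ratio. Resident cells had 1116 and 270 CPM, 4.13-fold lower (3.94 to 4.32), nonclassical cells 446 and 89.6 CPM, 4.98-fold lower (4.48 to 5.52), and Ccr2 cells 471 and 81.5 CPM, 5.78-fold lower (4.96 to 6.74). With thinning before gating the resident log2 ratio was -1.85, close to the -2.01 without. Other classes with clear Trf were isotype conventional dendritic cells, at 369 CPM (63 cells; 72.6 CPM in the 23 anti-CD40 cells), and fibroblasts, at 259 and 222 CPM with overlapping intervals. Neutrophils had 200 and 62.4 CPM, 3.20-fold lower (2.35 to 4.39). In NK cells, at 35.0 and 29.3 CPM, the ratio interval included 1 (0.684 to 2.03, as a fold lower).

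Tfrc, the receptor through which cells take up transferrin, was sparse in phagocytes, at 12.3 CPM (96 UMIs) and 5.13 CPM (164 UMIs). It was 2.40-fold lower (1.85 to 3.11) in the anti-CD40 library, but with the 10 CPM prior the log2 ratio of -0.56 fell short of 1.5-fold, and it passed without the prior. The gap was seen in resident cells, at 20.3 and 6.47 CPM, 3.13-fold lower (2.26 to 4.34), on 75 and 81 UMIs. In the nonclassical, Ccr2 and other splits each ratio interval included 1. These rested on 6 and 31, 2 and 17, and 10 and 20 UMIs, too few to tell whether the gap was there too. Under thinning before gating the resident log2 ratio was -0.05, against -0.88 without. The thinned resident gate held 108 and 117 cells of 1000 UMIs each. There 1 UMI is a large step beside these Tfrc levels, so no change can be read.

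In NK cells Tfrc was higher in the anti-CD40 library. These had 4.78 CPM (3 UMIs in 131 cells) in the isotype library and 28.0 CPM (43 UMIs in 163 cells) in the anti-CD40 library, a ratio of 5.86 (1.87 to 29.5). T cells had 11.4 CPM (3 UMIs) and 22.3 CPM (23 UMIs), with overlapping intervals. The CD71 tag, which reads the receptor protein, was at 243 and 973 tag CPM in NK cells, 4.00-fold higher (2.87 to 5.73), with control antibodies at 691 and 431. In phagocytes the CD71 tag was at 1222 and 1087 tag CPM, 1.12-fold lower (1.08 to 1.16). Control antibodies were 1.21-fold lower in the same cells, so relative to them the tag was not lower, unlike the transcript. The splits differed in direction. Resident cells were 1.27-fold lower (1.21 to 1.32), with control antibodies 1.15-fold lower. Nonclassical cells were 1.40-fold higher (1.24 to 1.58), with control antibodies 1.36-fold lower. In the Ccr2 and other splits the tag's ratio interval included 1. In isotype NK cells the CD71 tag was below the sum of the control antibodies.

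Slc11a1, the phagosomal metal transporter of myeloid cells, was at 170 CPM (1328 UMIs) in isotype and 138 CPM (4412 UMIs) in anti-CD40 phagocytes, 1.23-fold lower (1.16 to 1.31). Under TMM scaling its log2 ratio was -0.01, against -0.29. UMIs were found in 62.7% and 64.1% of phagocytes, and in 16.5% and 12.4% at 1000 UMIs, against 2.29% and 6.13% of NK cells at full depth. Among the splits, nonclassical cells had 143 and 160 CPM with a ratio interval that included 1, and other phagocytes 207 and 123 CPM, 1.68-fold lower (1.43 to 1.98). Neutrophils had 184 and 102 CPM, 1.79-fold lower (1.35 to 2.37). Every other class was at or under 30 CPM in both libraries.

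To place these genes in the wider pathway, 7 lists of 58 iron genes (the 8 included) were read in phagocytes; all 58 had a row and 35 reached 10 CPM in either library. Of these 35, 8 were lower and 1 was higher by the same call, beside 11.6% lower and 6.17% higher over all genes tested. Without the 8 genes described, 27 were tested, of which 4 were lower (Hfe, Lrp1, Hp and Ncoa4) and 1 was higher (Alas1), shares near those of all genes. Their median log2 ratio was -0.10, near the -0.13 of all genes tested.

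Hfe, a membrane partner of the transferrin receptor that takes part in hepcidin control, was at 93.4 and 43.1 CPM, 2.17-fold lower (1.98 to 2.37). Lrp1, which takes up haem bound to haemopexin, was at 225 and 116 CPM, 1.93-fold lower (1.83 to 2.05). Hp, haptoglobin, the plasma protein whose complex with haemoglobin CD163 binds, was at 85.7 and 48.2 CPM, 1.78-fold lower (1.62 to 1.95). Neutrophils had far more Hp, at 1297 and 2000 CPM (636 and 2405 UMIs), there higher in the anti-CD40 library. The part of neutrophil RNA in the phagocyte value was not tested. Ncoa4, the receptor that delivers ferritin to the lysosome, was at 48.5 and 26.9 CPM, 1.80-fold lower (1.59 to 2.03).

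The highest ratios were those of Alas1, the first enzyme of haem synthesis, at 33.0 and 58.8 CPM, 1.78-fold higher (1.56 to 2.04), and Cisd1, an iron-sulphur protein of the outer mitochondrial membrane, at 21.7 and 32.6 CPM, 1.503-fold higher (1.28 to 1.78) and within the call limit with the prior. Lcn2, lipocalin 2, which binds iron-loaded siderophores, was at 1.03 CPM (8 UMIs) and 6.88 CPM (220 UMIs), 6.70-fold higher (3.34 to 15.7) but under the 10 CPM minimum. Neutrophils had 618 and 2484 CPM of Lcn2, so beside the phagocyte value stand the neutrophil markers of 66.6 and 64.0 CPM given above. Their part in it was not tested.

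By role, haem and haemoglobin genes had 4 of 11 tested lower (Cd163, Hmox1, Hp and Lrp1; median -0.30), and the other haem genes were within the limit, among them Blvrb, which turns biliverdin into bilirubin, at 251 and 273 CPM. Transferrin and uptake genes had 1 of 5 lower (Trf), ferritin genes 1 of 5 (Ncoa4), export genes 1 of 2 (Slc40a1), and regulators 1 of 4 (Hfe). Mitochondrial iron genes had 0 of 8 lower and 1 higher (median 0.11). Over all genes tested 11.6% were lower and 6.17% higher, and with so few genes in a list a single call is no sign that the list stands apart. Cp, the ferroxidase ceruloplasmin that works with the exporter, was at 27.1 and 36.9 CPM, 1.36-fold higher (1.18 to 1.59).

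**Figure D5:**
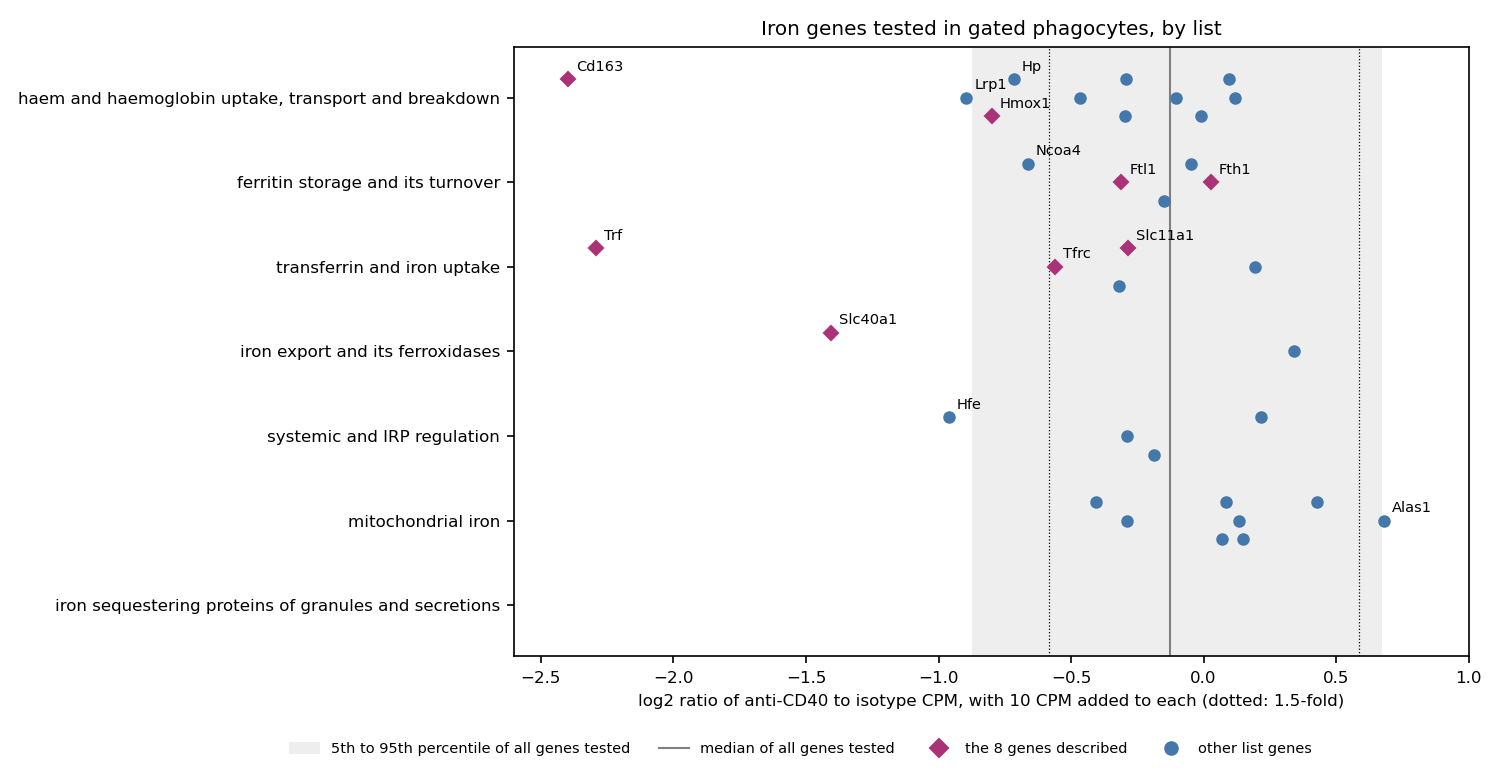
Log2 ratio with the 10 CPM prior of each iron gene tested in gated phagocytes, in 7 rows by list, with the 8 genes described as diamonds and the others as circles; the grey band spans the 5th to 95th percentile of all 8458 genes tested, the line is their median (-0.13) and dotted lines mark 1.5-fold. Cd163, Trf, Slc40a1, Hfe and Lrp1 lie left of the band, Alas1 just right of it, and the granule and secretion list has no gene over 10 CPM.

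Markers of other cell types also differed between the libraries, and their part in the results was not tested. In phagocytes, 9 of 9 B cell markers were detected and summed to 178 CPM in the isotype and 19.5 CPM in the anti-CD40 library. Cardiomyocyte genes summed to 124 and 76.7 CPM (8 of 8 detected). Other lists were higher in the anti-CD40 library: conventional dendritic cell markers summed to 257 and 340 CPM, mature dendritic cell markers to 21.3 and 57.7 CPM, endothelial markers to 14.9 and 23.7 CPM and fibroblast markers to 7.83 and 14.3 CPM. Red cell genes were near absent, with 41 and 104 UMIs over 7 genes (5.26 and 3.25 CPM) and Alas2 and Slc4a1 at 0 in both. The TER-119 tag against erythroid cells was also sparse in phagocytes, with 356 and 571 tag UMIs and a median of 0 per cell. It was at 106 and 52.9 tag CPM, 2.00-fold lower (1.75 to 2.29), where control antibodies were 1.21-fold lower. Phagocytes with at least 3 markers of a foreign class, here B cells, T cells, NK cells or neutrophils, were also left out (750 and 2408 cells remained). This gave log2 ratios of -2.43 for Cd163, -2.29 for Trf, -1.25 for Slc40a1 and -0.82 for Hmox1, and the same 4 calls. Markers of the other lists were not used to leave cells out.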

How the data were processed

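CITE-seq was analysed for 2 libraries. The authors deposited raw UMI counts per feature and barcode, with no normalization; the version in the file headers is Cell Ranger 6.0.1, but Cell Ranger 3 and Seurat 3 stand in the submitters' processing notes. Tags and genes lie in the same matrices. UMIs were summed per gated class and library with Python 3.11.15 and scipy 1.17.1: CPM has exact Poisson intervals, shares have Clopper-Pearson intervals, and ratios have exact conditional binomial intervals, all for counting error only. A droplet was mixed when an unrelated class that it also passed had at least 20% of the marker UMIs of its leading class. No doublet caller was run. Classes needed 20 cells for a level and 50 for a ratio. The ratio and its interval were tested on simulated independent Poisson counts. That is the model the interval assumes, so clustering of UMIs within cells was not covered. Scaling factors came from edgeR 4.0.16 (TMM) and DESeq2 1.42.0 (median of ratios). The genes, gene lists, markers and tests were chosen with earlier results of these data known. Named genes were the 8, the 3 highest and 3 lowest other iron genes with at least 30 UMIs, those described by role, and the 5 most alike in profile to Slc40a1, Hmox1 and Cd163. Promoters are RefSeq sequences (GRCm38.p6).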

Additional observations from a re-analysis of the deposited data

Results flagged for a closer look

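Tfrc was picked out because its ratio between the libraries pointed in opposite directions in different cell classes. It was 5.86-fold as high in the anti-CD40 as in the isotype library in NK cells, and 0.416-fold in phagocytes and 0.245-fold in neutrophils. The neutrophil value rests on 10 and 6 UMIs, and neutrophils with at most 1 phagocyte marker had 3 and 4. The difference between classes was not tested.

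The share of NK cells with a Tfrc UMI was 2.29% in the isotype and 16.6% in the anti-CD40 library at full depth, and 1 of 123 and 1 of 162 cells at 1000 UMIs, a level at which no change can be read. The CD71 antibody tag was picked out because it was higher in the anti-CD40 library and is not among the genes and tag chosen. It was 4.00-fold as high in NK cells and 1.84-fold in neutrophils (347 and 638 per 1000000 tag UMIs), where control antibodies were at 426 and 409.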

How the results depend on the processing

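Of the 8 genes, 2 were lower by 1.5-fold in phagocytes (Cd163 and Trf) after thinning to 1000 UMIs, 3 under either scaling, and 5 with Tfrc added under a prior of 1 CPM, no prior, 20% mitochondrial UMIs, a gate of 5 markers or a mixed limit of 50%; the other settings gave 4, and 0 were higher in each. Under TMM and median of ratios scaling 6.11% and 6.03% of all genes were lower and 12.6% and 12.7% higher. After thinning 7.11% were lower and 7.49% higher. A prior of 1 CPM made 19.3% lower and no prior 20.7%. At 20% mitochondrial UMIs, a gate of 5 markers and a mixed limit of 50% the lower share was 11.6%, 11.9% and 11.7%. The log2 ratio of the CD163 tag was -2.14, and -1.87 relative to control antibodies, -2.01 per cell, -1.998 under a stricter filter on genes and mitochondrial UMIs, and -2.30 without cells with foreign markers. Over the settings Cd163 ranged from -2.68 to -2.06, Trf from -2.36 to -2.01, Slc40a1 from -3.41 to -1.15 and Hmox1 from -0.87 to -0.52. The 4 alternatives that summed Ftl1 with its copy, limited neutrophils by phagocyte markers, dropped the top Slc40a1 cell or removed the prior were added after the data had been seen. No paired analysis was possible because each group is 1 library. Spread between mice is not measured, and classes under 50 cells in a library gave no ratio.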

Other observations

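Barcodes left out for 10% or more mitochondrial UMIs (2245 isotype and 2767 anti-CD40) also held transcripts of these genes. Per 1000000 nuclear UMIs, Cd163 was at 261 and 60.5, Trf at 545 and 152, Slc40a1 at 28.2 and 2.80 and Hmox1 at 78.5 and 58.3. Tfrc was at 43.7 and 15.8. These barcodes were given to no cell class.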
